A study of Drosophila melanogaster with 36 samples.

Results

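Drosophila melanogaster genes that carry only a CG number as their symbol were examined for transcript levels that differed between isogenic lines in the same way at 8 h and at 5 h of embryonic development. The members were chosen from the measured values by 3 criteria, on a log2(normalised intensity + 16) scale and from the mean of each line at each time. The mean difference of 8 h minus 5 h had to lie between -0.2 and 0.2, the range over lines of the mean of both times had to be at least 0.7, and the Pearson correlation of the 8 h with the 5 h line means had to be at least 0.8. Of 5209 CG-number genes on the array 17 met all 3 criteria, among 11982 genes in all. These values are therefore a description of the members, and no test is drawn from them.

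Whole embryos of 9 isogenic lines were profiled on one-colour Affymetrix arrays, with 2 RNA samples for each line at 8 h and at 5 h. Flies of an isogenic line have been inbred so far that they are close to genetically identical. The lines are named in the array titles Drosophila_17, Drosophila_23, Drosophila_58, Drosophila_75, Drosophila_83, Drosophila_89, Drosophila_128, Drosophila_134 and Drosophila_145, and no other genotype and no treatment is given. Of 36 arrays, 18 were of embryos at 8 h and 18 at 5 h. For 1 of the 5 h arrays the line is missing from the title, which leaves 35 arrays, with 1 array of Drosophila_17 at 5 h. Whether the paired RNA samples stem from separate embryo collections is not stated, so their spread, and p-values built on it, may be technical.

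Total intensity ran from 46261 to 266525 on the 8 h arrays and from 68984 to 309710 on the 5 h arrays, and 3152 to 8128 of 18769 probe sets per array exceeded the limit set by negative controls, the 99th percentile of their intensities on that array. Arrays carry no counts, so their number limits the precision. The labelled stages were set against marker genes. The summed intensity of 9 blastoderm genes, among them slam and halo, had a median of 40.5 at 8 h (19.5 to 278) and of 576 at 5 h (88.8 to 1610). That of 9 genes of later embryos, among them en and elav, had a median of 499 at 8 h (64.4 to 847) and of 137 at 5 h (19.9 to 327). Of 7 adult midgut protease genes on the array 0 were above the limit on at least 18 arrays, and of 9 eggshell and yolk genes 1 was.

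A CG number is the name a gene model receives in the annotation of the fly genome, and it stays in use until the gene is named for a mutant phenotype, a product or a homologue. Such genes are often known only from sequence. A transcript level that differs between inbred lines can follow from a difference at the gene itself or from one elsewhere in the genome, and in whole embryos fewer cells of a type and less RNA per cell cannot be told apart. Array signal is read here as transcript level. Whether sequence differences between lines under the probes change the signal was not tested.

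Some members have a known relative. CG14715 carries the synonym FKBP13, after a family of enzymes that turn proline bonds during protein folding. CG6770 is also called p8, after a small stress-induced nuclear protein of mammals. CG3164 encodes an ABC transporter of the family of white, which carries eye pigment precursors. CG13920 carries the synonym NACHO, in mammals a chaperone of nicotinic acetylcholine receptors, and CG5676 the synonym FUNDC1, in mammals a mitochondrial outer membrane protein of mitophagy. CG18190 is a relative of the microtubule plus-end protein EB1. CG44774 holds the hairpin RNA locus hp-CG4068, a source of endogenous small interfering RNAs. RefSeq (assembly Release 6 plus ISO1 MT) places 4 members on arm 2L, 2 on 2R, 4 on 3L, 3 on 3R and 4 on X, and lists all 17 as protein coding.

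The criteria were met rarely. Of the 5209 CG-number genes 184 (3.53%) had a range of at least 0.7, 154 (2.96%) a correlation of at least 0.8, 38 both, and 17 (0.326%) both with the small time difference. Of 6677 genes with other symbols 57 (0.854%) met the same 3 criteria. The mean log2 level of the members had a median of 4.75 (4.24 to 6.03), against 4.08 for all CG-number genes. Of all CG-number genes 28.1% were above the negative-control limit on at least 18 of 36 arrays. The share was 85.9% in those with a range of at least 0.7, and 82.4% (14 of 17) in the members. Their range over lines ran from 0.71 to 2.44 log2 units with a median of 0.962, and the SD between the 2 RNA samples of a line and time from 0.112 to 0.514 with a median of 0.177. The range was 2.71 times this SD in CG14629, the lowest of the members, and 21.8 times in CG43085, the highest.

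Members with values just inside the criteria were followed closely by genes just outside. CG14629, CG17129 and CG12608 had ranges of 0.71, 0.731 and 0.748, while CG12391, CG7702 and CG3165 missed with 0.692, 0.675 and 0.655. CG15628, CG17129 and CG14715 had correlations of 0.805, 0.81 and 0.81, while CG11164, CG42748 and CG40160 missed with 0.799, 0.798 and 0.797. For the time difference, CG14629, CG6770 and CG13920 stood at 0.197, -0.188 and 0.184, and CG14107, CG8860 and CG17734 missed with 0.208, 0.213 and -0.244.

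In limma's moderated F test among lines over both times, with Benjamini-Hochberg adjustment over all 18769 probe sets, 19.5% of probe sets had an adjusted p of at most 0.05, and 17 of 17 members did. The rule used the same line means, so nothing is read from that count. The arrays of a member's highest line all lay above those of its lowest line in 17 of 17 members, as they did in 41.9% of all CG-number genes and in 87.5% of those with a range of at least 0.7. The line farthest from the median of the 9 line means lay with all its arrays outside the arrays of the other 8 lines in 6 members, CG43085, CG14715, CG32095, CG10013, CG10208 and CG17129. The share was 0.576% in all CG-number genes and 7.61% (14 of 184) in those with a range of at least 0.7, which include the members.

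**Figure D1:**
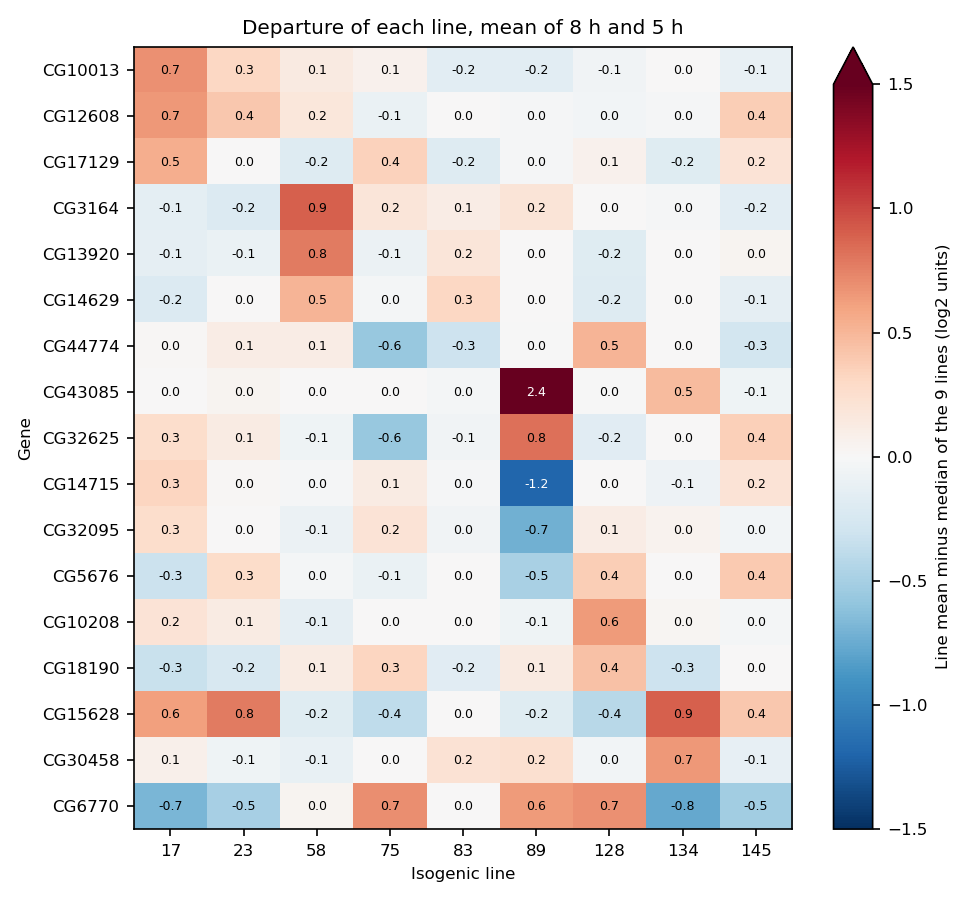
Departure of each line (columns) from the median of the 9 line means, in log2 units averaged over 8 h and 5 h, for the 17 members (rows, ordered by the line that departs most). Some rows have 1 strongly coloured cell, such as CG43085 in Drosophila_89 at 2.4, while others, such as CG6770 and CG15628, have several lines on each side.

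Drosophila_89 was the line farthest from the median in 5 of the 17 members (29.4%), against 21 of 184 CG-number genes with a range of at least 0.7 (11.4%). It was Drosophila_17, Drosophila_58 or Drosophila_134 in 3 members each, Drosophila_128 in 2 and Drosophila_75 in 1. Drosophila_23, Drosophila_83 and Drosophila_145 were farthest in 0 members. Among the 184 wide-ranging genes Drosophila_58 (25.5%) and Drosophila_75 (23.9%) were the most frequent. In 12 members the farthest line was higher than the median and in 5 it was lower.

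The widest difference was a transcript found at a high level in Drosophila_89. CG43085, on 3L, had intensities of 61.3 and 54.2 at 8 h and 90 and 103 at 5 h in Drosophila_89. In Drosophila_134 it had 16.3 and 10.6 at 8 h and 6.62 and 2.58 at 5 h. The 27 arrays outside the highest and the lowest line had a median of 1.86 and reached 16.3 at most, and Drosophila_145, the lowest, had 0 of 4 arrays above the limit. Drosophila_89 averaged 77.2 ± 23.3 and Drosophila_145 0.856 ± 1.3 (SD, n = 4 arrays each, 2 per time), a difference of at least 21-fold when the dim arrays are set at the lowest signal above the limit. Outside Drosophila_89, the arrays above the limit were 10 of 31, and Drosophila_134 was next highest at 8 h and at 5 h.

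CG14715, the FKBP13 gene on 3R, showed the opposite pattern in the same line. Drosophila_89 had intensities of 1.94 and 1.97 at 8 h and 1.82 and 1.75 at 5 h, with 1 of 4 arrays above the limit. The other 31 arrays ran from 13.9 to 41.5 with a median of 28.6, and all of them were above the limit. Drosophila_17, the highest, averaged 34.2 ± 3.71 (SD, n = 3 arrays), against 1.87 ± 0.102 in Drosophila_89 (SD, n = 4 arrays), a ratio of geometric means of at least 17.3-fold with the dim arrays at that signal. Among the other 8 lines the levels were close, with a range of 0.397 log2 units.

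CG32095, on 3L, was likewise low in Drosophila_89. Its intensities there were 0.308 and 2.26 at 8 h and 0.212 and 0.846 at 5 h, with 1 of 4 arrays above the limit. The other 31 arrays ran from 6.93 to 22.3 with a median of 12.5, all above the limit. Drosophila_17, the highest line, averaged 18.6 ± 3.96 (SD, n = 3 arrays), against 0.907 ± 0.945 in Drosophila_89 (SD, n = 4 arrays), at least 9-fold. The line means of CG32095 and CG14715 correlated with r = 0.939 over the 9 lines, the highest of the 136 pairs of members, and CG14715 with CG43085 at r = -0.965, the lowest. All of these coefficients come from the same arrays, and Drosophila_89 was the farthest line in each of the 3 genes.

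CG32625, on X, had 2 departing lines. In Drosophila_89 it had intensities of 27.9 and 27.8 at 8 h and 36.8 and 47.2 at 5 h, and in Drosophila_75 it had 3.53 and 2.31 at 8 h and 2.83 and 3.62 at 5 h. The other 27 arrays ran from 5.36 to 30.9 with a median of 13.1, so that Drosophila_75 lay below all of them and Drosophila_89 overlapped them. The ratio of Drosophila_89 to Drosophila_75 was 11.3-fold, with all 35 arrays of this gene above the limit.

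CG5676, the FUNDC1 relative on 2L, was highest in Drosophila_145, at 26.2 ± 4.65, and lowest in Drosophila_89, at 6.91 ± 1.78 (SD, n = 4 arrays each), a 3.83-fold ratio. Drosophila_128 and Drosophila_23 stood near Drosophila_145, and their paired RNA samples were far apart, with 21.0 and 41.1 in Drosophila_128 and 16.2 and 33.5 in Drosophila_23 at 8 h. The order of these 3 lines is not resolved by that spread.

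**Figure D2:**
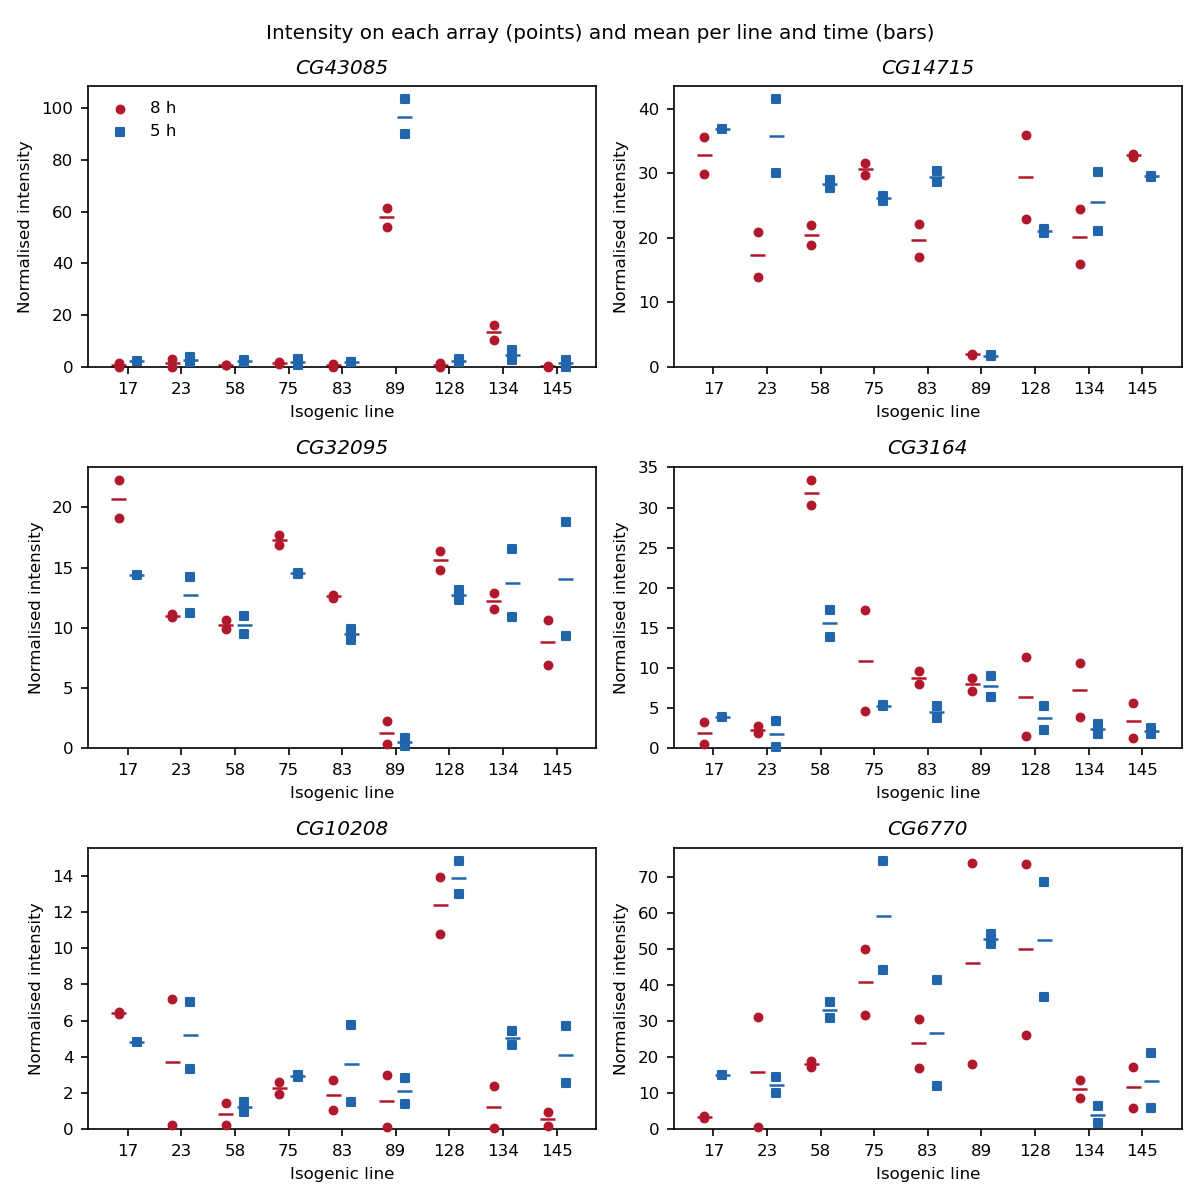
Normalised intensity (linear scale, arbitrary units) of 6 members on each of the 35 arrays, by isogenic line, with 8 h as red circles left of 5 h as blue squares and short bars for the mean of each line and time. CG43085 is high in Drosophila_89 with 54.2 to 103, CG14715 and CG32095 are near 0 in Drosophila_89, CG3164 is high in Drosophila_58, CG10208 in Drosophila_128, and CG6770 varies over lines with wide gaps between paired samples.

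Drosophila_58 carried the highest level of 3 members. CG3164, the ABC transporter gene on 2L, had intensities of 30.3 and 33.4 at 8 h and 13.9 and 17.3 at 5 h in Drosophila_58. The lowest line, Drosophila_23, had 2.71 and 1.83 at 8 h and 0.164 and 3.43 at 5 h, with 1 of 4 arrays above the limit. The other 27 arrays ran from 0.529 to 17.2. The highest of them, of Drosophila_75 at 8 h, lay above the lower 5 h array of Drosophila_58 and below its other arrays. Drosophila_58 was at least 7.63-fold higher than Drosophila_23. The difference within Drosophila_58 was 0.60 log2 units higher at 8 h, the largest of the 9 lines.

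CG13920, the NACHO relative on 3L, had 23.2 and 23 at 8 h and 10.9 and 12.4 at 5 h in Drosophila_58. Drosophila_128, the lowest, had 1.21 and 0.0900 at 8 h and 0.221 and 2.02 at 5 h, with 1 of 4 arrays above the limit, so that Drosophila_58 was at least 6.69-fold higher. Drosophila_83 was next highest, and its 8.73 and 11.3 at 8 h stood against 2.23 and 1.93 at 5 h, so it was the second highest line at 8 h and not at 5 h, and its 11.3 lay above the lower 5 h array of Drosophila_58. CG14629, on X, was also highest in Drosophila_58 and next in Drosophila_83, with means of 4.78 and 4.58 on the log2 scale. Its arrays in Drosophila_58 ran from 4.02 to 22.5 and overlapped those of the other lines, which reached 23.6. Drosophila_17, its lowest line, had 0 of 3 arrays above the limit, and Drosophila_58 was at least 3.51-fold higher.

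These 3 members had the time differences nearest the upper limit, 0.183 for CG3164, 0.184 for CG13920 and 0.197 for CG14629. Drosophila_58 also had the highest developmental score of the 9 lines, 0.286 against -0.942 in Drosophila_75, the lowest; the score is the mean level of 200 probe sets higher at 8 h minus that of 200 lower at 8 h, as found in the other 8 lines. Over the 9 lines the score correlated at r = 0.56 with CG3164, 0.741 with CG13920 and 0.752 with CG14629, and at -0.885 with CG17129, the only member past 0.8 in size. The share past 0.8 was 5.88% of members, 10.3% of CG-number genes with a range of at least 0.7 and 2.3% of all CG-number genes. The part of the score in the levels of these members was not tested.

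Drosophila_17, with 3 arrays, was the farthest line, and the highest, in CG10013, CG12608 and CG17129. CG10013, on 3R, had 16.5 and 13.4 at 8 h and 13.4 at 5 h in Drosophila_17. Drosophila_89, its lowest, had 0.119 and 1.09 at 8 h and 0.751 and 1.29 at 5 h, all below the limit, a difference of at least 7.57-fold. The other 28 arrays ran from 0.124 to 12.7 with a median of 2.68, so Drosophila_17 lay above them all. CG17129, on 3L, had 17.2 to 21.7 in Drosophila_17 and 1.67 to 16.0 on the 32 arrays of the other lines, a 4.08-fold ratio to Drosophila_58, its lowest line. CG12608, on X, had 26.3 to 37.7 in Drosophila_17, inside the 9.48 to 47.0 of the other lines, since 1 of the 5 h samples of Drosophila_23 reached 47.0 and its partner 16.1. The 5 h array whose title names no line is not among these arrays. It had 0.0888 for CG10013, 12.9 for CG17129 and 24.1 for CG12608, below all Drosophila_17 arrays of each gene. Drosophila_17 is the only line with 1 array at 5 h, and whether the untitled array belongs to it is not stated.

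Drosophila_128 was the farthest line, and the highest, in CG10208 and CG18190. CG10208, on 3R, had 10.8 and 13.9 at 8 h and 14.8 and 13.0 at 5 h in Drosophila_128, against 0.0814 to 7.21 on the 31 arrays of the other lines. Its lowest line, Drosophila_58, had 0 of 4 arrays above the limit, and Drosophila_128 was at least 7.65-fold higher. CG18190, the EB1 relative on 2R, averaged 20.9 ± 3.68 in Drosophila_128 (SD, n = 4 arrays) and 5.70 ± 0.365 in Drosophila_17 (SD, n = 3 arrays), a 3.63-fold ratio. Drosophila_75 followed, and its arrays, from 14.8 to 22.1, overlapped those of Drosophila_128, so these 2 lines do not differ beyond the SD of 0.258 between RNA samples of this gene.

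CG15628, on 2L, had several high lines. It averaged 29.5 ± 4.15 in Drosophila_134 and 2.14 ± 1.43 in Drosophila_128 (SD, n = 4 arrays each), a difference of at least 10.7-fold with 2 of 4 arrays of Drosophila_128 above the limit. On the log2 scale Drosophila_134, Drosophila_23 and Drosophila_17 were at 5.50, 5.38 and 5.22, and Drosophila_83, Drosophila_89, Drosophila_58, Drosophila_75 and Drosophila_128 at 4.60 or below. Drosophila_145 changed sides: it had 10.6 and 5.53 at 8 h, among the low lines, and 24.3 and 30.0 at 5 h, among the high ones. That difference of -0.85 log2 units was the largest of any line in this gene. A second probe set of CG15628 was above the limit on 3 of 35 arrays and had a range of 0.0938, and its line means correlated at r = -0.345 with those of the first. No other member had a second probe set.

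CG30458, on 2R, was highest in Drosophila_134, with 15.2 and 22.6 at 8 h and 8.41 and 3.74 at 5 h. Drosophila_145 had 0.0929 to 0.461 with 0 of 4 arrays above the limit, and Drosophila_134 was at least 2.87-fold higher. Of the 35 arrays 14 were above the limit, as few as for CG43085, and arrays of Drosophila_89 and Drosophila_83 reached 13.4 and 10.9 at 8 h.

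CG6770, the p8 gene on 2L, had 3 high lines rather than 1 line apart. Drosophila_75, Drosophila_128 and Drosophila_89 were high, with 18.1 to 74.5 and a median of 50.7 on 12 arrays, while the other 6 lines had 0.661 to 41.5 with a median of 14.4 on 23 arrays. The highest line, Drosophila_75, had 50.1 and 31.8 at 8 h and 74.5 and 44.2 at 5 h, and the lowest, Drosophila_134, had 8.71 and 13.6 at 8 h and 6.32 and 1.77 at 5 h, a difference of at least 6.68-fold with 3 of 4 arrays of Drosophila_134 above the limit. This gene also had the largest SD between RNA samples of the members, 0.514: at 8 h the pair of Drosophila_89 read 18.1 and 74.0, that of Drosophila_128 read 73.7 and 26.2, and that of Drosophila_23 read 31.2 and 0.661. Drosophila_75, Drosophila_128 and Drosophila_89 therefore do not differ from each other beyond that spread.

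CG44774, on X, was the brightest member, at a mean log2 level of 6.03. It had 79.3 and 71.7 at 8 h and 89.4 and 80.0 at 5 h in Drosophila_128, above the 31 arrays of the other lines, which reached 69.1. In Drosophila_75 it had 28.9 and 39.4 at 8 h and 30.7 and 19.6 at 5 h. The ratio of Drosophila_128 to Drosophila_75 was 2.77-fold. Its probe set is of a type (suffix x) that the array maker marks as able to bind related sequences, and those of CG12608 and CG17129 (suffix s) can match several transcripts.

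**Figure D3:**
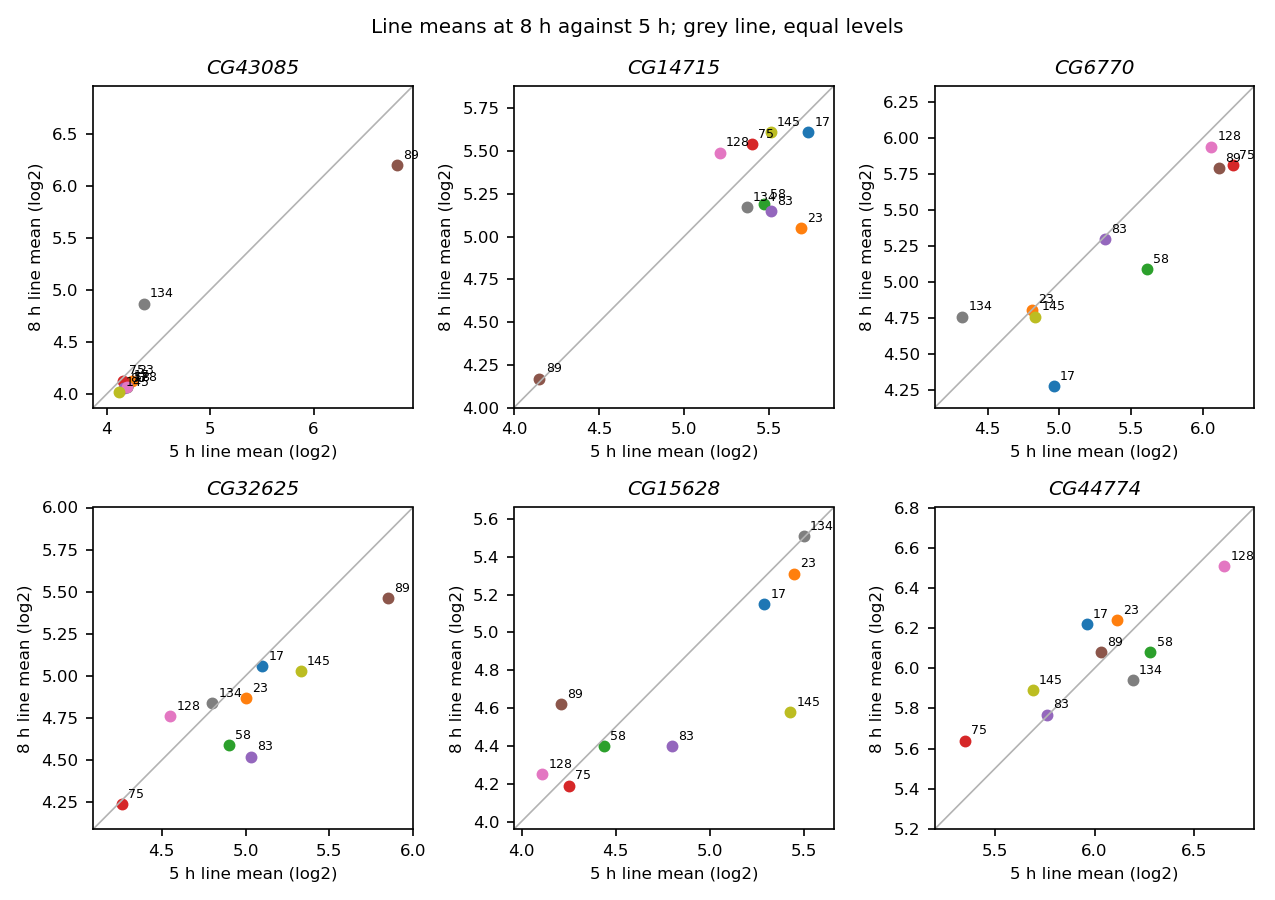
Mean log2(normalised intensity + 16) of each line at 8 h (vertical axis) against 5 h (horizontal axis) for 6 members, with line numbers beside the points and a grey line of equal levels. In CG43085 and CG14715 Drosophila_89 stands alone at both times, in CG6770 and CG44774 the lines spread along the grey line, and in CG15628 Drosophila_145 lies far below it.

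The correlation between times was mostly lower with 1 line left out. With the farthest line left out, the range stayed at 0.7 or more in 5 members and the correlation at 0.8 or more in 4, and 1 member, CG5676, kept all 3 criteria. The correlation became -0.11 in CG14715, 0.0079 in CG13920, 0.44 in CG32095 and 0.47 in CG10208. It stayed at 0.90 in CG43085, 0.91 in CG6770 and 0.84 in CG18190. CG6770 kept its range at 1.39 and missed only on the time difference, at -0.267. The highest line was the same at both times in 13 of 17 members and the lowest in 5. These counts are partly set by the rule, which asks that the times correlate, and no share over other genes is given for them.

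**Figure D4:**
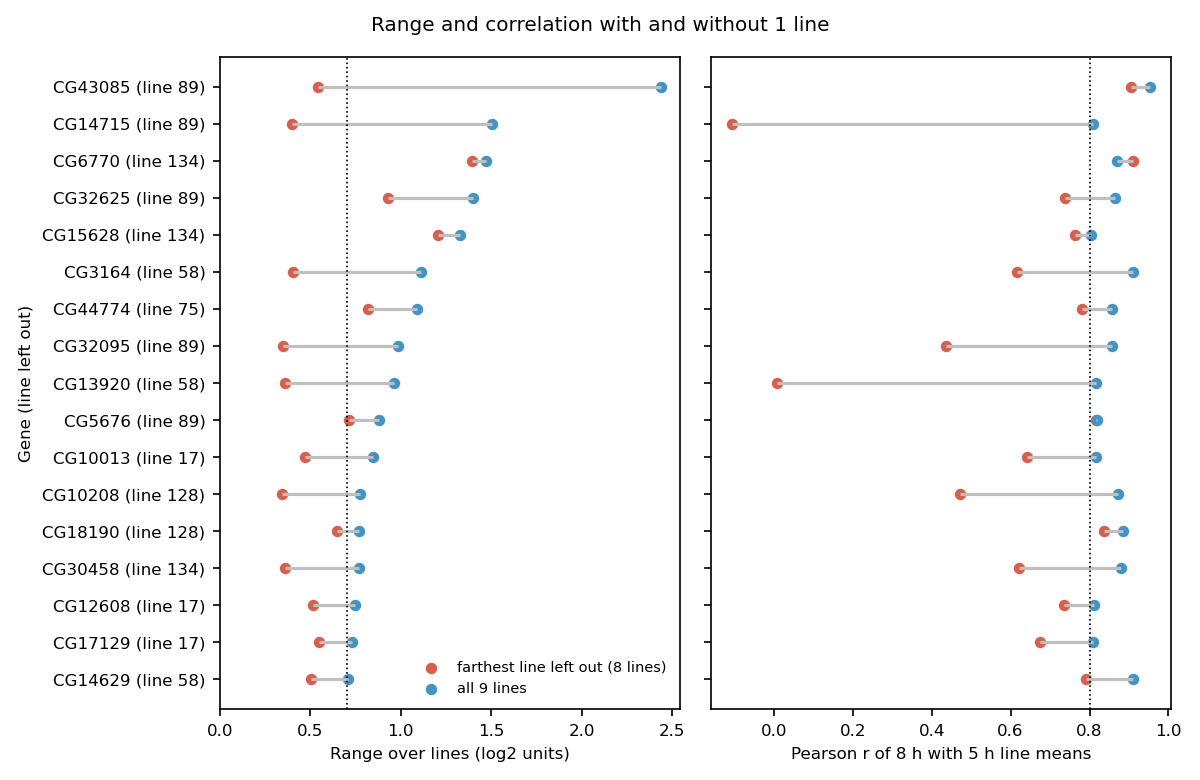
Range over lines in log2 units (left) and Pearson correlation of the 8 h with the 5 h line means (right) for the 17 members, with all 9 lines (blue) and with the line farthest from the median left out (red, named beside the gene); dotted lines mark the criteria of 0.7 and 0.8. Red points lie left of the dotted line for 12 members in range and 13 in correlation.

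The largest gap between neighbouring line means took at least 50% of the range in 7 members: CG43085, CG14715, CG3164, CG32095, CG13920, CG10208 and CG30458. In each of the 7 the gap separated 1 line from the other 8. The gap took 77.7% of the range in CG43085 and 52.9% in CG30458. In CG6770 it took 40.6% and separated 3 lines from 6, and in CG18190 24.2%, the lowest share.

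To see how far the pattern held in RNA samples that did not choose it, the same criteria were applied to the arrays of 1 RNA sample of each line and the result looked up in the other, over the 8 lines with both samples at both times. Sample 1 arrays chose 19 CG-number genes, 7 of them members. In the sample 2 arrays 14 of the 19 had a range of at least 0.7, against 5.01% of all CG-number genes, 5 had a correlation of at least 0.8, against 3.8%, and 4 met all 3 criteria, against 0.461%. Sample 2 arrays chose 24 genes, 4 of them members, and in the sample 1 arrays 11 had the range (4.15% of all), 4 the correlation (2.69%) and 4 all 3 (0.365%). A gene that met all 3 criteria in both samples counts in either direction, so these are the same 4 genes. That count is therefore 1 result, and the 0.461% and 0.365% beside it are the shares that the samples themselves chose. The median correlation was 0.869 where the 19 were chosen and 0.635 in the other sample, and for the 24 it was 0.888 and 0.531. In both directions more of the chosen genes had the range in the other RNA sample than had the correlation. Since the paired RNA samples may be technical, these counts may show only how well the measurement repeats. They are not read as independent support for the line differences. The shares beside them are over all CG-number genes, dim ones included. Whether the chosen genes exceed genes of similar level was not tested.

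The 17 members were chosen on the means of both samples, so the agreement of the samples in them is partly set by the rule and is given as a description. The line means of sample 1 and sample 2 correlated with a median r of 0.818 over 8 lines, from 0.279 in CG12608 and 0.487 in CG18190 to 0.987 in CG43085. Drosophila_17, the highest line of CG12608 and the lowest of CG18190, is not among these 8 lines. For CG-number genes with a range of at least 0.7 the median was 0.789 and for all CG-number genes 0.2. The same line was highest in both samples for 12 members and lowest for 5, and no share over other genes is given for these counts. Over all 9 lines Drosophila_17 was the highest line of 5 members. Among the 12, the line shared by both samples was therefore not the member's highest in CG14715, CG32095, CG10013 and CG17129. For CG14715, Drosophila_89 was lowest and for CG3164 Drosophila_58 was highest in each sample alone.

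The line patterns of neighbouring genes were set beside those of the members. The RefSeq table gave 44 overlapping or adjacent genes, of which 28 were represented by a probe set with 1 gene name. Their line means correlated with those of the member at a median r of -0.021, and at 0.8 or more in 2 of 28 pairs (7.14%), against 19 of 355 (5.35%) for all CG-number genes with a range of at least 0.7. No neighbour was itself a member. CG30457, next to CG30458, had r = 0.896 and averaged 10.6 ± 9.95 in Drosophila_134, 10.7 ± 12.3 in Drosophila_89 and 1.21 ± 0.746 in Drosophila_128, its lowest line (SD, n = 4 arrays each). Its 8 h means in Drosophila_134, Drosophila_89 and Drosophila_83 were 5.04, 4.89 and 4.80 on the log2 scale, the same 3 lines that were high for CG30458.

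CG4822, which lies beside CG3164 and encodes another ABC transporter of the family of white, had r = 0.804 and was highest in Drosophila_58. All 4 of its arrays there were above the limit, with 1.69 to 3.53, while 2 of 31 were elsewhere, and its range was 0.15 log2 units. Of the other neighbours 4 had a range of at least 0.7. Pep, beside CG43085, spanned 0.88 with its lowest levels in Drosophila_75 and Drosophila_89, 51.3 ± 7.63 and 57.9 ± 8.03 (SD, n = 4 arrays each), and r = -0.397. Gs1, a glutamine synthetase gene beside CG3164, and Ptp4E, a receptor tyrosine phosphatase gene beside CG44774, had r = 0.665 and 0.366. The fourth, Bro, beside CG13920, had r = -0.366 and was 0.868 log2 units lower at 8 h than at 5 h. The ribosomal protein gene RpL10Ab, which overlaps CG32095, had a range of 0.21 log2 units and was lowest in Drosophila_17.

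The genes most like each of the 12 widest members were sought over the 18 line-by-time means. For CG43085 these were Cyp6a23, a cytochrome P450 gene, with r = 0.936, and regucalcin with r = 0.858, both highest in Drosophila_89. Cyp6a23 was above the limit on 5 of 35 arrays. For CG6770 they were Ipk2, an inositol phosphate kinase gene, at 0.952 and Uch, a ubiquitin hydrolase gene, at 0.94. CG3164 was most like Trp1 at 0.939 and PH4alphaSG2 at 0.926, and CG13920 most like MFS3 at 0.963 and CG9628 at 0.96, all 4 highest in Drosophila_58. CG14715 and CG32095 were each other's nearest gene at 0.851. CG10208 was most like CG8738 at 0.907, itself above the limit on 2 arrays, and CG15628 like CG11180 at 0.866 and hkb, a terminal patterning gene, at 0.854. For CG32625, CG44774, CG5676 and CG10013 the highest values were between 0.741 and 0.855. All of these points come from the same arrays.

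Measures of the lines as a whole moved with some members. The mean of 7 maternal transcripts was highest in Drosophila_75 and Drosophila_89, at 6.28 and 6.02, and lowest in Drosophila_134, at 4.63. Over the 9 lines it correlated with CG6770 at r = 0.906, with CG18190 at 0.821 and with CG15628 at -0.868, and with the other 14 members at sizes below 0.8. The share of genes past 0.8 in either direction was 17.6% of members, 16.8% of CG-number genes with a range of at least 0.7 and 3.86% of all CG-number genes. For array brightness it was 0 of 17 members, against 10.9% of CG-number genes with a range of at least 0.7 and 3.51% of all CG-number genes. Brightness was a covariate in an alternative fit of the F test among lines, given below, and its part in the members' levels was not itself tested. The mean of 5 muscle genes correlated past 0.8 with 0 members, against 5.43% of CG-number genes with a range of at least 0.7 and 1.82% of all, and the median size of r was 0.484 in members, 0.378 in those wide-ranging genes and 0.291 in all. The part of the maternal transcripts and of the muscle genes in the members' levels was not tested.

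The farthest line was the same under each of 3 other scalings (deposited values, arrays centred on the median, a common 90th percentile) in 10 of 17 members, among them CG43085, CG14715, CG3164, CG13920, CG10208 and CG10013. In CG6770, CG32095 and CG12608 another line was farthest under at least 1 of these, while the line named above stayed the highest or the lowest. In CG15628, CG44774, CG18190 and CG17129 it lost that place under the first 2 of these but kept its side of the median. The median time difference over the members was -0.247 on the deposited scale, against -0.053 after quantile normalisation, and 10 of the 17 members lay outside the limits on the deposited scale. The median of all probe sets above the limit on at least 18 arrays was -0.188 on the deposited scale, against -0.0315 after quantile normalisation.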

How the data were processed

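Per the labels' protocols, TRIzol-extracted RNA was copied to double-stranded cDNA, transcribed to biotin-labelled cRNA and hybridised to Affymetrix arrays. The authors deposited linear intensities for 18952 probe sets. Which software and scaling gave them is not given in the sources used here. Array medians ran from 0.859 to 1.6. The 183 control probe sets were left out, the other 18769 were quantile normalised over 36 arrays, and log2(intensity + 16) was taken, on which differences of dim probe sets are understated; 91.3% of values lay under 16.

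A probe set counts as above the limit on an array when its deposited intensity exceeds the 99th percentile of 49 control probe sets. Their role as negative controls was read from their names and is stated nowhere else. Intensities in the text are quantile normalised. Folds are ratios of geometric means without a pseudocount. Where an array of the lower line was not above the limit, each array of that line was set at the higher of its own value and the lowest signal above the limit, and the fold is written as at least.

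Names came from the platform annotation, brought up to date by gene number with RefSeq (13647 with 1 symbol, 402 with several, 4720 unnamed here; 13544 matched), and of several probe sets of a gene the one with the highest mean stood for it. No genome build is given for the array, so no coordinates are printed. The moderated F test was limma's (3.58.1, R 4.3.3), with a mean for each line and time, a trended prior variance and 17 residual degrees of freedom. In simulated data of 18769 probe sets 198 of 200 with a line SD of 0.5 and 10 of 18569 unchanged ones were called. The 200 were drawn from probe sets with a mean level above the median, and the noise was independent between arrays. Calls of changed dim probe sets, or with noise shared between arrays, were not examined. All per-sample columns were used. The members, the marker lists and the rules for the genes named were chosen with earlier results of these data known. The 12 widest members are described in most detail, neighbours are named at a range of 0.7 or r of 0.8, and the 2 most alike genes are named. RNA samples with the same number did not deviate together in a consistent way. Over 8 lines the correlation of their deviations at 8 h and 5 h ran from -0.389 to 0.279. Its median was 0.0719, with 3 lines above 0.1. Alternatives were the scaling, the pseudocount, a filter on dim probe sets, Spearman correlation, other gene symbols, the median of a gene's probe sets, each RNA sample left out, a replicate block, brightness as a covariate and another prior; leaving out Drosophila_75 and Drosophila_89 was added after seeing the data.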

Additional observations from a re-analysis of the deposited data

Results flagged for a closer look

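Among the 9 line means of a member, a line was marked when its gap to the nearest other line, divided by the whole range, exceeded Dixon's 95% value. Chance marks about 1 in 20 such groups, and here the members had been chosen from these means; 7 of 17 members were marked (41.2%), against 32 of 184 CG-number genes with a range of at least 0.7 (17.4%) and 9.31% of all CG-number genes. Drosophila_89 was marked as highest in CG43085 (0.777) and as lowest in CG14715 (0.736) and CG32095 (0.646). Drosophila_58 was marked as highest in CG3164 (0.636) and CG13920 (0.624), Drosophila_128 as highest in CG10208 (0.556) and Drosophila_134 as highest in CG30458 (0.529).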

How the results depend on the processing

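The criteria chose 45 genes on the deposited scale (5 of them among the 17), 35 with a pseudocount of 4 (5 shared), 5 with a pseudocount of 64 (1 shared), 6 with Spearman correlation (4 shared) and 9 without Drosophila_75 and Drosophila_89 (7 shared); the pseudocount changes the log2 scale that the limits are set on. With 1 RNA sample left out they chose 19 to 24 (6 to 7 shared). With the 6 other alternatives they chose 14 to 17, and 5 to 17 of them were shared, the fewest with centred medians. In the F test among lines, 16 or 17 of 17 members were called, and 14 of the 14 that passed the filter on dim probe sets, except when 1 RNA sample was left out, where 10 to 13 were; that fit has the line-by-time term as its error. With the replicate block 17 members were called, the same 17 as without it. Over all probe sets 3661 were called, 6259 on the deposited scale, 2342 with brightness as a covariate and 386 to 614 with 1 RNA sample. Of 136 ranges of members recomputed under 8 alternatives 82 moved by less than the SD between RNA samples, and 34 of the 54 that moved did so with another pseudocount. Signal limits the dim members: CG43085 and CG30458 were above the limit on 14 of 35 arrays.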

Other observations

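The array at 5 h whose title names no line was not placed in any group. For 16 of the 17 members its intensity lay within the range of the other 17 arrays at 5 h. CG10013 was the exception, at 0.0888 against a lowest value of 0.3. Its CG43085 intensity was 1.98, its CG14715 intensity 34.5, its CG32095 intensity 15.3 and its CG6770 intensity 4.9, and CG44774, the brightest member, stood at 58.3.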
